A study of Mus musculus with 12 samples.

Results

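The 7 genes described here are the mouse MHC class II genes Cd74, H2-Aa, H2-Ab1, H2-Eb1, H2-DMa, H2-DMb1 and Ciita, taken by symbol from 32867 genes counted in whole retina. RNA came from 12 retina samples, 3 each of C3H wild-type mice and of mice with the Pde6b rd1, Pde6b rd10 or Prph rd2 mutation, each of which leads to the inherited loss of photoreceptors. Each mutant was sampled at the day its photoreceptor death peaks, which is postnatal day 13 for Pde6b rd1, day 23 for Pde6b rd10 and day 29 for Prph rd2, and the 3 C3H samples are 1 of each of these days. The study's methods place Pde6b rd10 on C57Bl6/J and the other groups on C3H, while the sample labels give C57BL6/J for Prph rd2. Pde6b encodes a subunit of the rod phosphodiesterase and Prph2, the gene mutated in Prph rd2, encodes a structural protein of photoreceptor outer segments. Mice of either sex were used, and the sources used here do not say which sample came from which animal, so p-values measure the spread between these samples.

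MHC class II molecules present peptides from the endosomal pathway to CD4+ T cells. The α and β chains encoded by H2-Aa and H2-Ab1 pair into the I-A molecule, and H2-Eb1 encodes the β chain of the I-E molecule. Cd74 encodes the invariant chain, which fills the groove until it is degraded, and H2-DMa and H2-DMb1 encode the 2 chains of H2-DM, which exchanges the last invariant chain peptide for other peptides. Ciita encodes the coactivator that switches these genes on without binding DNA itself, by joining factors that sit on a conserved promoter module of an X box and a Y box. In the healthy retina few cells carry class II molecules, and they are known chiefly from microglia, perivascular macrophages and dendritic cells.

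The letters of this promoter module were looked for in windows from 250 bases before to 50 bases after the start site. RefSeq gives these start sites on GRCm38.p6. The windows of 3 members that were high in Pde6b rd10 are shown 5′ to 3′ on the strand of the gene: H2-Aa at chr17:34287774-34288073 on the minus strand, H2-Eb1 at chr17:34305617-34305916 and H2-DMb1 at chr17:34152941-34153240, both on the plus strand. Capitals mark the letters GATTGG of a Y box, on either strand, and the letters GNAAC that start an X box where they begin 28 to 33 bases before GATTGG. These letters and the distance were chosen after reading the windows.
H2-Aa: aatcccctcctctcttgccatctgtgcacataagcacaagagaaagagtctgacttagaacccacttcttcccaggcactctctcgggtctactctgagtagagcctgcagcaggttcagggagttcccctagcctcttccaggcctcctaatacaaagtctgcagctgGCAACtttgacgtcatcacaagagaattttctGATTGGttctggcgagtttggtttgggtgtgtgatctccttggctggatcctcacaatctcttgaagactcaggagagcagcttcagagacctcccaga
H2-Eb1: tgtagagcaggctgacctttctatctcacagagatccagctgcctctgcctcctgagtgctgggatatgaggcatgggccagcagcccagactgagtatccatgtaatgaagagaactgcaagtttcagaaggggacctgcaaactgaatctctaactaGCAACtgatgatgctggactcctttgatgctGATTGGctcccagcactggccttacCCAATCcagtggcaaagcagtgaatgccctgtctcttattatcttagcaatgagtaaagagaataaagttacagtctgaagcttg
H2-DMb1: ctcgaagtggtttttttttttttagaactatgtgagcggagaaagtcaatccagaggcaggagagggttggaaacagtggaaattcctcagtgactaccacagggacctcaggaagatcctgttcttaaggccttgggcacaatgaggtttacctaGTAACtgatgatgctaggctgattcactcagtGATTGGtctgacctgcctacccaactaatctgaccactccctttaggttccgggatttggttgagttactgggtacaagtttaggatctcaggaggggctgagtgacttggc
GATTGG began 49, 60 and 62 bases before the start site of H2-Aa, H2-Eb1 and H2-DMb1, and the X box letters began 32, 31 and 32 bases before it, with no overlap of the 2 motifs.

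RefSeq windows were matched for 4 of the 7 members, and the pair of motifs was found in 3 of them. Both strands searched, GATTGG occurred in 16.1% of all 32851 windows of this length, GNAAC in 84.8%, and the pair at the set distance in 0.338%. These were 111 windows, from 105 of 27025 genes, and the class II genes with the pair are among the 105. The fourth member, H2-DMa, has 2 windows, and neither held the pair. Protein-coding transcripts of H2-DMa also start at 34135628 and 34135654 in GENCODE M21. No window covers these starts, so the promoter there was not searched. Of 4 other class II genes with a window, the pair was found in H2-Oa, H2-Ob and H2-Eb2, and H2-DMb2 held GATTGG without the pair. A match gives the letters only, and no binding was measured.

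Between 17049495 and 24755890 reads were counted on genes per library, so the floor of 3 counts lay between 0.121 and 0.17 CPM (counts scaled to a common library size). Replicate libraries of a group differed by more than sampling noise. Chi-square per degree of freedom, larger where libraries differ more, was 1.71 to 2.79 between C3H libraries. It was 1.67 to 3.33 in Pde6b rd1, 5.06 to 10.1 in Prph rd2 and 2.29 to 5.9 in Pde6b rd10. The C3H libraries, of 3 days, thus differed no more than those of the mutants, each of a single day. Readings by age rest on the stated days of the C3H samples, which were not tested. Rods were well represented in every group, and Gnat1, the rod transducin gene, had between 14723 and 78852 counts per library. The mutated genes were lower in the matching mutants, with Pde6b at 4937 to 6253 counts in Pde6b rd1 and 16340 to 21014 in Pde6b rd10 against 24335 to 29129 in C3H, and Prph2 at 30656 to 34634 in Prph rd2 against 52768 to 65756. Prph2 was also lower in the other models, at 29041 to 35541 counts in Pde6b rd1 and 38587 to 51724 in Pde6b rd10.

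The comparison of each model with C3H asks which genes differ at the peak of photoreceptor death. Of the 7 class II genes, 6 were higher in Pde6b rd10 than in C3H and 1, H2-DMa, was not called, where a call in edgeR needs a 1.5-fold difference at p under 0.05, unadjusted. Over all 18704 genes tested, 15.9% were called higher and 8.08% lower. Of the 7 members, 5 passed the filter on low counts only through the Pde6b rd10 libraries, so they had to differ there, and Cd74 and H2-DMa passed in every comparison. The 7 genes together held between 985 and 1284 counts in each Pde6b rd10 library and between 103 and 154 in each other library.

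**Figure D1:**
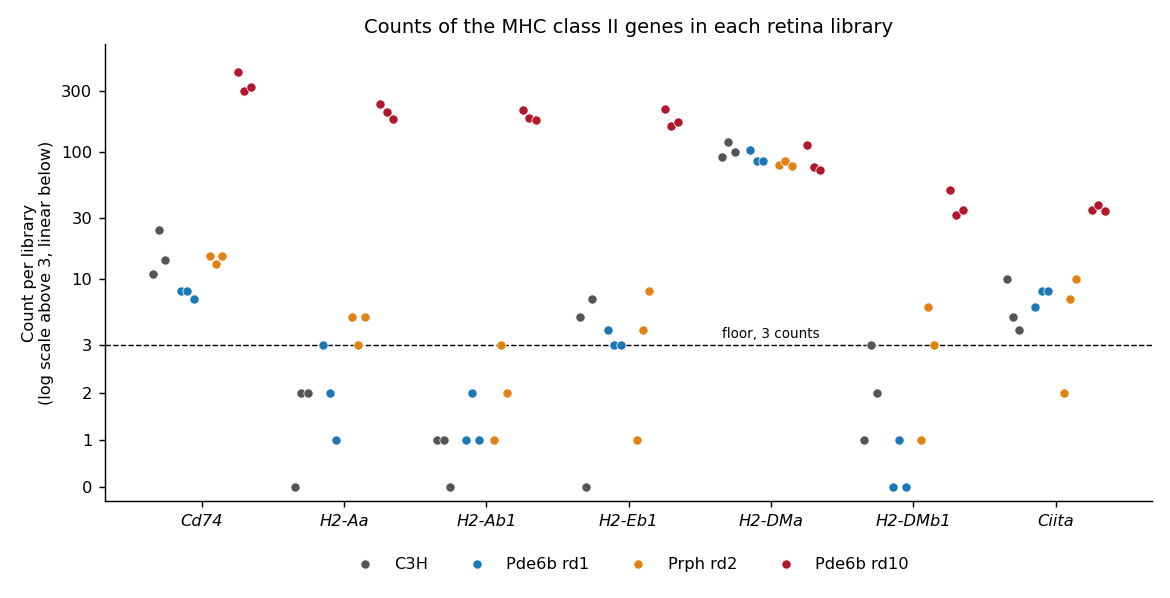
Counts per library of the 7 class II genes, each point 1 retina library, on an axis that is logarithmic above the floor of 3 counts (dashed) and linear below it. The Pde6b rd10 libraries sit above all others for each gene but H2-DMa, where the 4 groups lie between 72 and 119 counts.

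Cd74, the invariant chain gene, had 421, 298 and 319 counts in the 3 Pde6b rd10 libraries. In C3H it had 11, 24 and 14 counts, the 24 in the C3H sample of day 23, the age of the Pde6b rd10 mice. Pde6b rd1 held 8, 8 and 7 counts and Prph rd2 15, 13 and 15, so that the Pde6b rd10 libraries stood apart and the others were within 7 to 24 counts. The log2 fold change of Cd74 in Pde6b rd10 against C3H was 4.34 (SE 0.155, edgeR adjusted p = 2.2e-15), from 0.769 ± 0.235 to 16.2 ± 0.769 CPM (SD, n = 3).

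The genes of the I-A molecule were at or under the floor in C3H. H2-Aa, the α chain, had 237, 203 and 179 counts in Pde6b rd10 against 0, 2 and 2 in C3H. H2-Ab1, the β chain, had 212, 183 and 176 counts against 1, 1 and 0. For both genes the lowest Pde6b rd10 library was far above the highest C3H library. With each C3H library set to the floor, the lower bound of the fold was 66.8 for H2-Aa (edgeR adjusted p = 3.16e-14) and 61.7 for H2-Ab1 (adjusted p = 1.59e-14). As ratios of summed counts per library size, the fold was 151 for H2-Aa, with an exact 95% interval of 58.7 to 556, and 279 for H2-Ab1, with an interval of 76.7 to 2305. These intervals cover counting error only. The lower bounds hold for the observed counts and allow for no counting error, so a bound can lie above the low end of its interval.

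H2-Eb1, the β chain of I-E, had 217, 159 and 170 counts in Pde6b rd10 and 5, 0 and 7 in C3H. The log2 fold change was 5.41 (SE 0.291, edgeR adjusted p = 1.88e-12). The C3H sample of day 23 was the one at 0 counts, which at its depth allows up to 0.128 CPM. The gene of the I-E α chain is defective in the C57BL/6 haplotype and is listed as H2-Ea-ps, which had 0 counts in all 3 Pde6b rd10 libraries and 0 or 1 count in each of the others.

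The 2 chains of H2-DM differed from each other. H2-DMb1 had 50, 32 and 35 counts in Pde6b rd10 and 1, 3 and 2 in C3H, a lower bound of 12.5-fold (edgeR adjusted p = 2.09e-08) and a ratio of summed counts of 19, with an exact 95% interval of 8.48 to 52.9. H2-DMa had 112, 76 and 72 counts in Pde6b rd10 and 90, 119 and 99 in C3H, with a log2 fold change of -0.30 (SE 0.14, adjusted p = 0.0792). By count the H2-DMa ranges overlap, and in CPM the Pde6b rd10 libraries, at 4.03 ± 0.489 CPM (SD, n = 3), lay below those of C3H, at 4.93 ± 0.282. H2-DMa was the member with the most counts in each library outside Pde6b rd10, with 64.2 to 82.4% of the counts of the 7 genes, and held 7.31 to 8.72% in Pde6b rd10. Of the exon bases of H2-DMa, 10.4% overlap exons of Brd2, a gene on the opposite strand with 5103 to 7064 counts per library, and whether the counting used strand is not stated, so reads of the 2 genes in the overlap cannot be told apart. H2-DMb1 lies beside its close copy H2-DMb2, and reads they share could have been split or dropped, which makes the values of both uncertain.

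Ciita, the coactivator, was the lowest of the 7 per length in Pde6b rd10. It had 35, 38 and 34 counts in Pde6b rd10 and 10, 5 and 4 in C3H, which do not overlap. The log2 fold change was 2.43 (SE 0.353, edgeR adjusted p = 6.59e-06). With limma on log2(FPKM + 1) it was 0.19 (SE 0.0427), below 1.5-fold, since the group mean was 0.18 FPKM, well under the value added. Of the exon bases of Ciita, 3.45% overlap exons of Dexi on the opposite strand, which had 293 to 644 counts per library.

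In the comparisons of Pde6b rd1 and Prph rd2 with C3H, only Cd74 and H2-DMa passed the filter, and the other 5 members were too low to test. In Pde6b rd1, 0 were called higher and 1 lower, against 8.98% and 6.03% of 18310 genes. Cd74 was that gene, at 0.388 ± 0.056 CPM against 0.769 ± 0.235 in C3H (SD, n = 3), a log2 fold change of -1.01 (SE 0.394, edgeR adjusted p = 0.0415). This call rested on single libraries. Without C3H replicate 2, the day 23 sample with 24 counts, the log2 fold change was -0.74 and the call was lost. Without Pde6b rd1 replicate 1 it was -0.94 and the call was also lost, as it was with DESeq2. The C3H sample of the same age as Pde6b rd1, day 13, had 11 counts of Cd74. H2-DMa differed from C3H by -0.11 (SE 0.134, adjusted p = 0.529).

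In Prph rd2, edgeR called 0 members in either direction and DESeq2 called 0, against 2.68% of 18581 genes higher and 1.89% lower in edgeR, and 1 member, H2-DMa, had an unadjusted p under 0.05. H2-DMa had 78, 84 and 77 counts, and its log2 fold change of -0.57 (SE 0.138, adjusted p = 0.018) fell just short of 1.5-fold. It passed 1.5-fold when C3H replicate 1 or Prph rd2 replicate 2 was left out, at -0.61 and -0.60. H2-Aa had 5, 3 and 5 counts in Prph rd2, above the 0 to 2 of C3H, and was too low to test. The other members at low counts overlapped C3H in both models: H2-Ab1 had 1 to 3 counts, H2-Eb1 1 to 8, H2-DMb1 0 to 6 and Ciita 2 to 10.

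**Figure D2:**
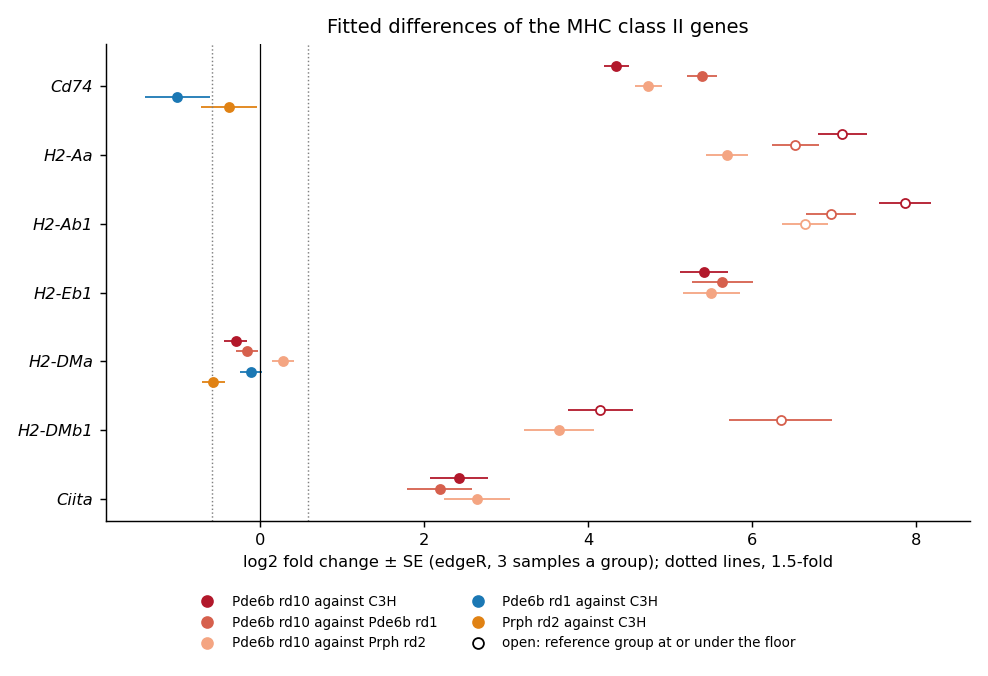
Fitted log2 fold changes (points) with their SE (bars) for each class II gene and comparison, open where the reference group was at or under the floor of 3 counts, so that the fitted size depends on the fit and is no bound. For 6 genes the 3 Pde6b rd10 comparisons lie between 2.19 and 7.87, and all values of H2-DMa lie between -0.57 and 0.27.

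The Pde6b rd10 samples were set against the other 2 models directly, in a fit of all 12 samples. Against Pde6b rd1, 6 members were higher, where 17.6% of 19616 genes were called higher, and against Prph rd2 the same number were, where 13.5% were. Cd74 differed by 5.39 (SE 0.181, edgeR adjusted p = 1.55e-15) from Pde6b rd1 and by 4.74 (SE 0.161, adjusted p = 3.14e-15) from Prph rd2 on the log2 scale. H2-Eb1 differed by 5.64 and 5.51, with exact 95% intervals of the ratio of summed counts of 27.6 to 107 and 26.9 to 87.6. Ciita differed by 2.19 (SE 0.395, adjusted p = 8.4e-05) and 2.64 (SE 0.403, adjusted p = 1.82e-05). Against Pde6b rd1, with no library above 3 counts of either gene, the lower bounds were 63.9-fold for H2-Aa and 59.1-fold for H2-Ab1, and the intervals of the ratio were 44.1 to 264 and 51.9 to 492. Against Prph rd2 the ratio was 52.6 for H2-Aa, with an interval of 30.5 to 99.3, and the lower bound was 70.3-fold for H2-Ab1, with an interval of 48 to 288. H2-DMb1 had 1 count in all of Pde6b rd1, which gives a ratio of 109 with an interval of 19.3 to 4361, and the ratio was 12.9 against Prph rd2, with an interval of 6.78 to 27.6. H2-DMa was not called against either, with log2 differences of -0.16 (SE 0.133) and 0.27 (SE 0.135). These comparisons and that with C3H share the Pde6b rd10 libraries.

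The mutation and the strain of Pde6b rd10 mice cannot be told apart in these comparisons, and their day is shared by 1 C3H library only. That library had 24 counts of Cd74, 2 of H2-Aa, 1 of H2-Ab1, 0 of H2-Eb1, 3 of H2-DMb1 and 5 of Ciita. A single library allows no test, so the part of day was not tested. Reads were aligned to GRCm38, the genome of C57BL/6J, and C3H mice carry another H2 haplotype. H2-Q5, a class I gene of the complex that was chosen after its values were seen, had 0 counts in each C3H and Pde6b rd1 library, 10 to 15 in Prph rd2 and 33 to 54 in Pde6b rd10. Cd74 and Ciita lie outside the H2 complex and were also higher in Pde6b rd10. The Prph rd2 libraries are labelled C57BL6/J but placed on C3H by the study's methods. They had 13 to 15 counts of Cd74 and 3 to 5 of H2-Aa, where Pde6b rd10 had 298 to 421 and 179 to 237. The part of strain or haplotype in any of these values was not tested.

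Per length, in FPKM, the order of levels in Pde6b rd10 was Cd74 at 11.6 ± 0.44, H2-Eb1 at 7.25 ± 0.132, H2-Ab1 at 5.53 ± 0.393, H2-Aa at 5.22 ± 0.515, H2-DMa at 2.47 ± 0.282, H2-DMb1 at 1.23 ± 0.114 and Ciita at 0.18 ± 0.0323 (SD, n = 3). Only H2-Ab1 and H2-Aa, the 2 chains of I-A, overlapped as neighbours in this order. Their FPKM ratio, α to β, was 0.945 ± 0.0488 over the 3 samples. Cd74 stood at 2.1 ± 0.208 times H2-Ab1, and H2-DMa at 2.01 ± 0.144 times H2-DMb1. In C3H, Pde6b rd1 and Prph rd2, H2-DMa was the highest of the 7, at 2.94 ± 0.155, 2.87 ± 0.175 and 2.03 ± 0.103 FPKM, and Cd74 followed at 0.534 ± 0.16, 0.283 ± 0.0428 and 0.425 ± 0.0344. The lengths behind these values are 1 per gene and ran from 1184 bases for H2-Eb1 to 9535 for Ciita.

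**Figure D3:**
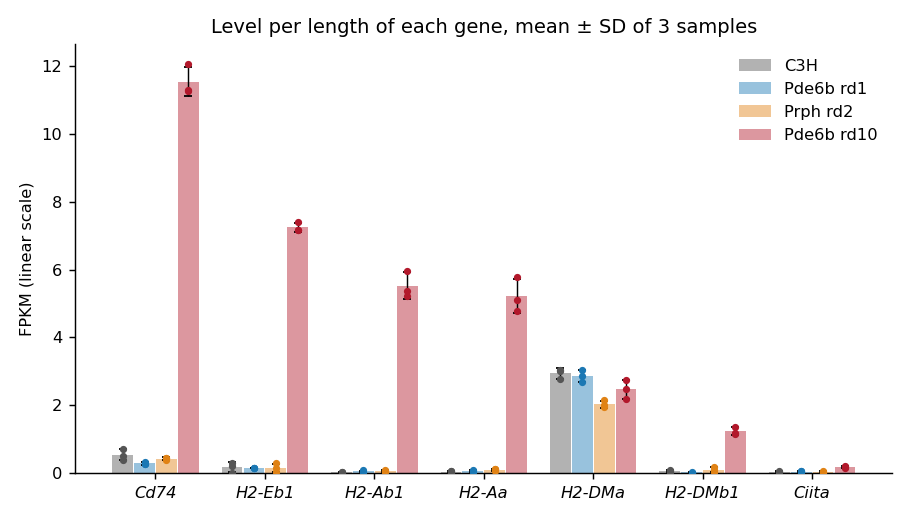
Level per length (FPKM, linear axis from 0) of each class II gene in the 4 groups, with bars at the mean, error bars of 1 SD and a point for each of the 3 samples. In Pde6b rd10 the order runs from Cd74 at 11.6 to Ciita at 0.18, and H2-DMa is the only gene above 1 FPKM in the other groups.

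The other class II genes of the H2 complex were near the floor and none passed the filter in any comparison. H2-DMb2, the copy of H2-DMb1, had 8 to 15 counts in Pde6b rd10 and 0 to 2 in C3H, a lower bound of 3.49-fold with C3H at the floor. H2-Oa and H2-Ob, whose products form the H2-DO inhibitor of H2-DM, had 3 to 6 and 1 to 12 counts in Pde6b rd10 against 0 and 0 to 1 in C3H. H2-Eb2 had 2 to 3 counts against 0. Without the filter, 4 of these genes were called higher in Pde6b rd10, in a setting that called 6065 genes in either direction. H2-Eb2, which is among them, had no library above 3 counts in Pde6b rd10 or C3H. The limit of haplotype given above holds for these genes too.

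The genes that make peptides, cut the invariant chain and set the turnover of class II molecules moved in part. Of 8 tested, 4 were higher in Pde6b rd10 than in C3H and 0 lower, with a median log2 fold change of 0.55, where the median over all genes tested was -0.0025. Ctss, the protease of the last step of invariant chain cleavage, had 1105 to 1649 counts against 245 to 308, a log2 fold change of 2.27 (SE 0.0666, edgeR adjusted p = 8.25e-17). Ifi30, a thiol reductase of endosomes, rose by 1.74, Cd83, which protects class II molecules from turnover, by 0.96, and the protease Ctsb by 0.70. Ctsl differed by 0.39 and the protease Lgmn by 0.19. The invariant chain protease Sppl2a differed by 0.04, and March1, a ubiquitin ligase that removes class II molecules from the surface, by -0.16. In Pde6b rd1 and Prph rd2, 0 of the 8 were called in edgeR.

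Of the factors on the X and Y boxes that Ciita joins, 0 of 7 were called in edgeR or DESeq2 in any of the 3 models against C3H. In Pde6b rd10, 5 of them had an unadjusted p under 0.05 below 1.5-fold. Rfxank was the highest, at 383 to 478 counts against 251 to 288, a log2 difference of 0.58 (SE 0.084), just under 1.5-fold, and Nfya the lowest, at -0.54 (SE 0.0583). Rfxank passed 1.5-fold when C3H replicate 3, Pde6b rd10 replicate 1 or Pde6b rd10 replicate 3 was left out, and with limma on log2(FPKM + 0.1). Rfx5 differed by 0.12 and Rfxap by -0.04.

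Of 8 tested genes of interferon gamma signalling and of factors known to act on Ciita, 4 were higher in Pde6b rd10 and 0 lower, with a median of 0.80. Irf1, a factor that acts on the Ciita promoter after interferon gamma, had 355 to 468 counts against 62 to 71, a log2 fold change of 2.58. Spi1 and Irf8, factors of myeloid cells, rose by 2.99 (70 to 87 counts against 5 to 12) and 2.22. Socs1, an inhibitor of the pathway, rose by 1.33. The receptor genes Ifngr1 and Ifngr2 differed by -0.01 and 0.02, and the kinase genes Jak1 and Jak2 by -0.12 and 0.27. Ifng itself had 0 to 2 counts in Pde6b rd10 and 0 in each of the other libraries.

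Of the co-stimulatory and checkpoint molecules that act beside class II molecules in antigen presentation, 3 of 4 tested were higher in Pde6b rd10. Icosl rose by 2.68, Cd274, the checkpoint ligand PD-L1, by 2.58 and Cd86 by 2.21 (35 to 43 counts against 7 to 9). Cd86 passed the filter only through the Pde6b rd10 libraries, so it had to differ there. Cd40, a receptor, was at 9 to 24 counts against 22 to 35, a log2 difference of -0.70 (SE 0.345, edgeR adjusted p = 0.0944). Cd80 and Pdcd1lg2 were not tested, at 5 to 9 and 2 to 5 counts in Pde6b rd10 and 5 to 8 and 1 to 6 in C3H.

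The class I presentation genes were all higher in Pde6b rd10, 9 of 9 tested, with a median of 3.83. H2-K1 and H2-D1, the classical heavy chains, rose by 6.23 and 6.13, B2m, the light chain, by 4.17, and Nlrc5, the class I counterpart of Ciita, by 5.18, from 3 to 11 counts to 253 to 311. Nlrc5 passed the filter only through the Pde6b rd10 libraries, so it had to differ there. In Prph rd2, 2 of 8 tested class I genes were higher, H2-K1 by 2.04 and H2-D1 by 1.22. The other 6 were not called, among them B2m, at 7.21 CPM against 6.56 in C3H. H2-K1 and H2-D1 are genes of the H2 complex, where C3H mice carry another haplotype than the genome used for alignment. The part of haplotype in their differences, in Prph rd2 and in Pde6b rd10, was not tested. In Pde6b rd1, 2 of 7 were lower, H2-K1 by -0.91 (edgeR adjusted p = 0.0215) and Psmb9 by -1.01 (adjusted p = 0.0615).

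**Figure D4:**
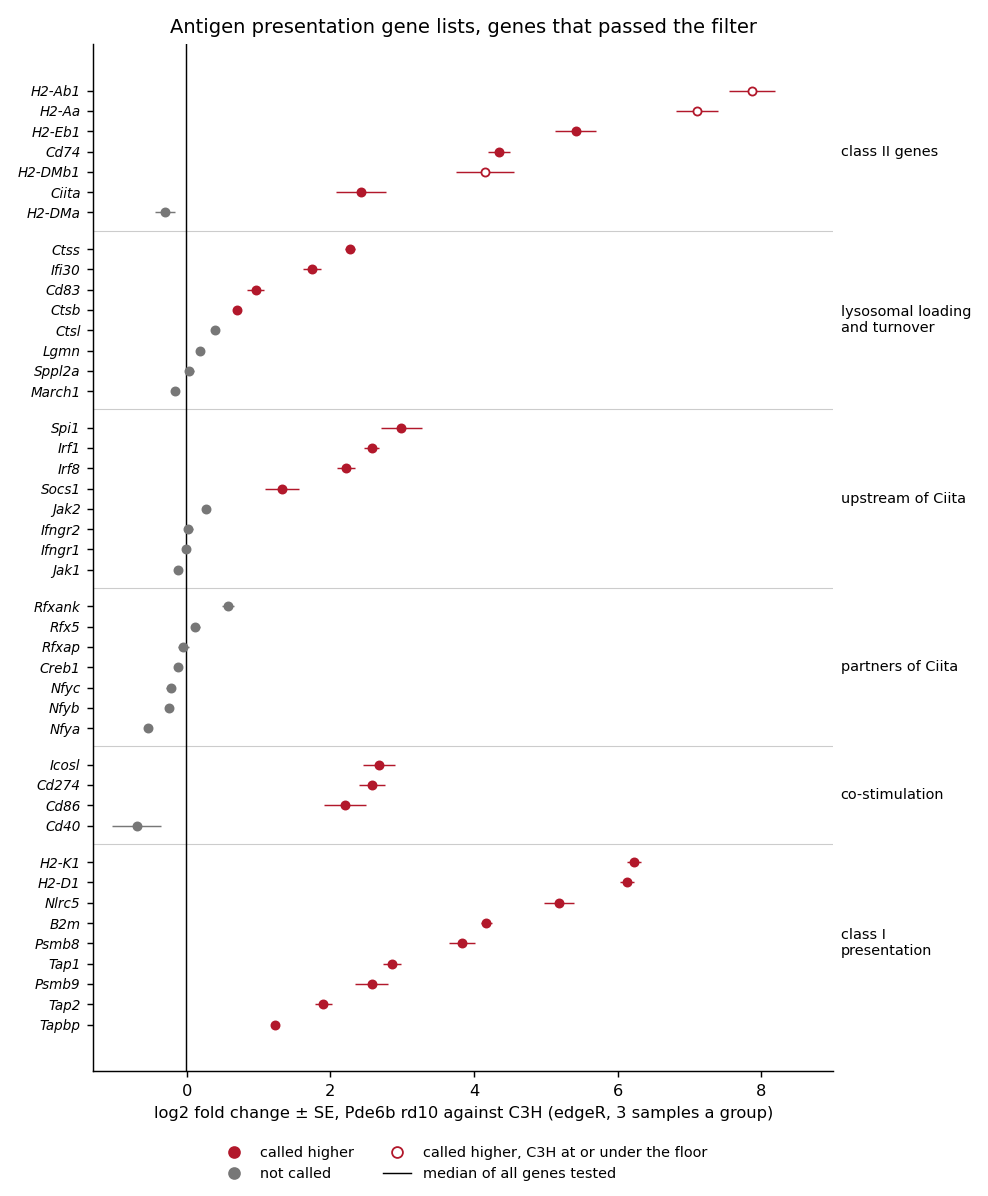
Log2 fold change of Pde6b rd10 against C3H (points) with its SE (bars) for each gene of 6 antigen presentation lists that passed the filter on low counts, red where called higher and open where C3H was at or under the floor. Points called higher reach 7.87 for H2-Ab1, while the 7 partners of Ciita lie between -0.54 and 0.58.

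Markers of leukocytes moved with the class II genes. In bulk retina, more cells of a type and more RNA per cell cannot be told apart. All 4 leukocyte markers were higher in Pde6b rd10, among them Ptprc (CD45) by 3.50, and their summed level was 53 to 54.1 CPM against 10.9 to 11.5 in C3H, with none at 0. Of 8 monocyte and macrophage markers, 7 were higher, and the sum was 45.7 to 51.4 against 15.5 to 17 CPM. Ccr2, the chemokine receptor of monocytes, had 103 to 169 counts against 0 to 1, Mrc1 had 215 to 302 against 3 to 15, and Plac8 had 24 to 27 against 0. In C3H, 4 of these markers were at or under the floor, namely Ccr2, Plac8, Cd163 and Ms4a7. Ly6c2 was called by its unadjusted p alone (edgeR adjusted p = 0.0834) and Lyve1 was not called, at 0.27. Lyve1 had a mean of 17.8 CPM in Pde6b rd10 and 14.6 in C3H, where it made up most of the macrophage sum. Of 8 microglia markers, 6 were higher, with a sum of 180 to 184 against 84.6 to 87.7 CPM; P2ry12 and Sall1, at -0.36 and 0.41, were not called.

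Markers of dendritic cells, B cells and T cells were at lower counts. Of 3 dendritic cell markers tested, Itgax (CD11c) rose by 2.69 and Flt3 by 0.76, while Zbtb46, at 283 to 368 counts against 314 to 410, differed by -0.16 (SE 0.0832) and was not called. Zbtb46 made up most of the sum of all 7, which was 22.5 to 23.8 against 18.3 to 20.4 CPM. Ccr7 had 6 to 12 counts, Cd209a 3 to 10, Xcr1 1 to 7 and Clec9a 2 to 3, against 0 to 3 in C3H. The B cell markers Cd79a and Ms4a1 had 0 to 3 counts in Pde6b rd10, Cd79b had 9 to 11 against 0 to 1, and Pax5 was lower, by -2.18. Of the T cell markers, Cd8a had 27 to 35 counts against 0 to 2 and was called higher. It passed the filter only through the Pde6b rd10 libraries, so it had to differ there. Cd4 had 10 to 18 against 0 to 5, and Cd3e, Cd3d, Cd3g, Cd8b1 and Trac had 0 to 4 in Pde6b rd10. Lck differed by 0.39 and was not called. The part of any of these cells in the class II counts was not tested.

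Outside Pde6b rd10 the marker sums differed by list. The leukocyte sum was 11.6 to 13.1 CPM in Pde6b rd1 and 9.9 to 11.3 in Prph rd2, and the macrophage sum was 6.51 to 7.41 and 19.6 to 20.8. Most of the macrophage sum was Lyve1 alone, with a mean of 6.03 CPM in Pde6b rd1 and 18.5 in Prph rd2. The dendritic cell sum was highest in Pde6b rd1, at 24.8 to 27.8 CPM, and 18.1 to 18.9 in Prph rd2. In Pde6b rd1, Itgax was higher by 1.54 and Lyve1 lower by -1.27. Among rod and cone markers, 3 of 5 were lower in Pde6b rd10 and 4 of 5 in Pde6b rd1. Of 6 Müller glia and vessel markers, Gfap was higher in Pde6b rd10 by 3.19 and Slc1a3 lower by -0.76, Glul was lower in Pde6b rd1 by -1.54, and 0 were called in Prph rd2 by edgeR.

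**Figure D5:**
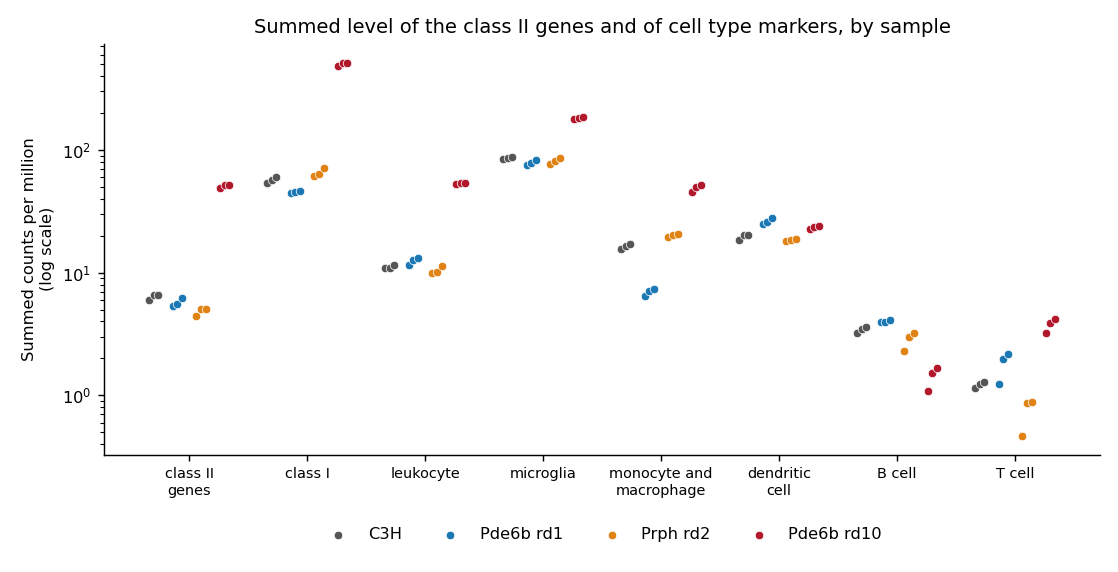
Summed level (CPM, log axis) of the class II genes, the class I genes and 6 lists of cell type markers, each point 1 sample, 3 for each group. The class II sum is 48.7 to 52 in Pde6b rd10 and 4.45 to 6.59 elsewhere, and the leukocyte, microglia and macrophage sums are also highest in Pde6b rd10.

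The 8 other genes whose pattern over the 12 samples was most like the mean of the 7 members, by Pearson's r of log2(CPM + 1), were Togaram2, C1qb, A930030B08Rik, Rps2, Dab2, Rnf144b, Ptgs1 and Tnfaip2, with r from 0.993 to 0.997. With 3 samples high and 9 low, r mostly records that split, and the 12 points share their libraries. C1qb, a chain of complement C1q, had 577 to 817 counts in Pde6b rd10 and 86 to 127 elsewhere, Tnfaip2 had 234 to 315 against 4 to 19, and Togaram2 130 to 172 against 3 to 14. Rps2 shares sequence with pseudogene copies, so its counts are uncertain. Among the members themselves, r with the mean was 0.954 to 0.984 for 6 genes and 0.003 for H2-DMa.

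Of the 7 genes, 5 lie within 197 kb of the H2 complex on chromosome 17 (GRCm38, GENCODE M21), from 34119541 to 34316674. They are H2-DMa (34119541 to 34139101), H2-DMb1 (34153072 to 34160230), H2-Ab1 (34257689 to 34269419), H2-Aa (34282744 to 34287823, minus strand) and H2-Eb1 (34305867 to 34316674). Prph2, the gene mutated in Prph rd2, starts at 46910459 on the same chromosome. Ciita lies on chromosome 16 from 10480059 to 10528418 and Cd74 on chromosome 18 from 60803848 to 60812652. All are protein coding. Among 12510 circRNAs detected in the same libraries, 0 had a member as host gene.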

How the data were processed

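The data are 12 retina RNA libraries, depleted of ribosomal RNA and directional. The authors aligned cleaned reads to GRCm38 (HISAT2 is listed in the submitters' processing notes) and counted them per gene with HTSeq 0.11.2, and the deposited gene counts are not normalized. The deposited FPKM values are these counts divided by the authors by gene length and library total. The circRNA junction counts deposited by the authors were only searched for member host genes, and 12 columns of scaled circRNA values were not used. The annotation release and the strand setting of the counting are not given in the sources used here.

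Differences between a model and the 3 C3H samples were fitted with edgeR 4.0.16 in R 4.3.3 (TMM, filterByExpr, quasi-likelihood test). Models were compared with each other in a fit of all 12 samples. A call needed a fold of 1.5 or more at p under 0.05, unadjusted, and p-values were adjusted over all genes tested. A group with no library above 3 counts is at the floor. A lower bound sets the mean CPM of a group against 3 counts in each library of the reference. It is a bound on the observed counts and not a confidence limit. Ratios of summed counts have exact 95% Clopper-Pearson intervals. Levels of different genes were compared in FPKM only. The tests were checked on simulated data. Other settings tried were RLE size factors, DESeq2 1.42.0, limma 3.58.1 (log2 of FPKM with 1 or 0.1 added), no filter, the adjusted p, another sample set, a replicate block and each replicate left out.

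The members and gene lists were chosen with earlier results of these data known. The genes named are the members, the listed genes that carry a count, go the other way or lie at the floor, and the 8 genes of the most similar pattern. Of 103 listed genes, 101 were in the files, and some genes are not reported here. Positions came from GENCODE M21 and promoters from RefSeq on GRCm38.p6, read with Python 3.11.15.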

Additional observations from a re-analysis of the deposited data

Results flagged for a closer look

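Opposite calls against C3H in the 2 models that share the mutated gene were found for 3 of the 101 listed genes in the files. Each was a rise in Pde6b rd10 and a fall in Pde6b rd1. The genes were picked for these opposite calls, and both calls use the same C3H libraries. A called direct contrast of the 2 models was therefore nearly fixed by the choice, and its p-values are no separate evidence. How many of all genes had opposite calls is not given here. The log2 difference, Pde6b rd10 minus Pde6b rd1, was 5.39 for Cd74 (SE 0.181, edgeR adjusted p = 1.55e-15), with 298 to 421 counts against 7 to 8. It was 7.17 for the class I heavy chain gene H2-K1 (SE 0.141, adjusted p = 5.8e-19) and 3.60 for the immunoproteasome gene Psmb9 (SE 0.297, adjusted p = 2.23e-09). Each was higher in 3 of 3 Pde6b rd10 libraries than in any Pde6b rd1 library. The lower call in Pde6b rd1 is the weaker side of each: the adjusted p was 0.0415 for Cd74, 0.0215 for H2-K1 and 0.0615 for Psmb9, and leaving out Pde6b rd1 replicate 1 ended each call, with log2 fold changes of -0.94, -0.71 and -0.80. Over 14 alternatives the lower call was lost in 4 for Cd74, 2 for H2-K1 and 8 for Psmb9, the last including DESeq2, the adjusted p, both limma settings and 4 of the 6 left-out replicates. Pde6b rd1 was sampled at day 13 and Pde6b rd10 at day 23, and the 2 models differ in strain, so mutation, age and strain cannot be told apart.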

How the results depend on the processing

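The count of class II genes called higher in Pde6b rd10, 6 in each of its 3 comparisons, was 6 under each alternative but limma on log2(FPKM + 1), where it was 5 because Ciita, at 0.19, 0.18 and 0.20 on the log2 scale, was under 1.5-fold. The count called lower in Pde6b rd1, 1, was 0 with DESeq2 and 0 with limma on log2(FPKM + 1), and ranged from 0 to 1 with a replicate left out. In Prph rd2 the count called lower, 0, ranged from 0 to 1 with a replicate left out. Of 350 values of members under the alternatives, 341 kept their direction and side of the threshold and 0 changed sign. For the other listed genes called, where the alternatives were chosen after seeing the data, 2098 of 2156 did, 58 lost the call and 0 changed sign. Samples of different groups with the same replicate number were not taken as pairs in the main fits, though some pairs with C3H share the day. The correlations of their deviations ran from -0.126 to 0.333, and not every pair was over 0.1 in any comparison. For Pde6b rd10 the mean was 0.223 with Prph rd2, 0.115 with Pde6b rd1 and -0.0499 with C3H. Between samples of different number it was -0.111, -0.0582 and 0.025. Whether samples of the same number share a batch was not tested. With the replicate block, 6 members were higher in Pde6b rd10 in each comparison, 1 was lower in Pde6b rd1, and no member's call changed. Depth limits H2-Aa, H2-Ab1, H2-Eb1, H2-DMb1 and Ciita outside Pde6b rd10, where counts of 0 to 10 do not resolve differences between C3H, Pde6b rd1 and Prph rd2.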
